A study of Mus musculus with 6 samples.

Results

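The skeletal myogenic factors were examined in RNA-seq counts of whole mouse embryos at midgestation (E10.5, staged from the vaginal plug). The group holds 8 genes of the skeletal muscle lineage, *Pax3*, *Pax7*, *Myf5*, *Myod1*, *Myf6*, *Myog*, *Mymk* and *Myh3*, taken by name from a table of 55401 genes. Each symbol matched 1 Ensembl identifier, every one of the 8 genes had counts in all 6 libraries, and 7 of the 8 passed the filter on low counts, *Mymk* being the exception. Wild-type (WT) embryos, with an unmodified *Igf2* locus, were compared with 5C embryos, which carry a tandem array of 5 added copies of *Mir483*, a microRNA gene, at the endogenous *Igf2* locus. Each genotype had 3 libraries, all on a C57BL/6J background. Per the study's methods each library pooled a pair of male embryos, the WT embryos were littermates, and the array was passed on by chimeric males made from edited ES cells. The array was inserted at *Igf2* itself, and its expression in the muscle lineage was not measured in these whole-embryo libraries.

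Skeletal muscle of the trunk and limbs comes from the dermomyotome, the dorsal layer of each somite, where the paired-box factors Pax3 and Pax7 maintain muscle progenitors. The bHLH factors Myf5, Myod1 and Myf6 commit cells to the lineage, and Myog drives their differentiation. These 4 factors pair with E proteins and bind E-boxes, the motif CANNTG, in muscle genes. Mymk (myomaker) is a membrane protein needed for myoblast fusion, and Myh3 is the embryonic myosin heavy chain of the first fibres. At midgestation the rostral somites form the first myotomal muscle while fibres of the adult type are not yet present. *Pax3* and *Pax7* are also made in the dorsal neural tube and neural crest, so their level in a whole embryo is not that of muscle alone.

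Some libraries stood apart before any member was considered. Totals ranged from 6357343 counts in WT replicate 3 to 19151368 in WT replicate 1. *Mir483* itself had 2 to 11 counts per library in WT and 36 to 85 in 5C, with no overlap. Y-linked transcripts summed to 48 counts in WT replicate 2 and 1 count in 5C replicate 2, against 1211 to 3612 in the other libraries, and *Xist* was present in all 6 at 495 to 914 CPM (counts as a proportion of a library's TMM-scaled total), so these libraries go against the description of the pools as male. Markers of extraembryonic endoderm summed to 6358 CPM in WT replicate 1 and 1284 CPM in 5C replicate 3, against 180 to 527 CPM elsewhere. Members whose estimates moved most without these libraries are given without them as well.

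The edit raises a microRNA, so its mature sequences are shown first, with the seed (bases 2 to 8) in capitals and the seed match that was searched in 3′ UTRs being its complement. Both are RefSeq entries on the minus strand of chromosome 7 in GRCm38.p6, miR-483-3p at chr7:142654932-142654952 and miR-483-5p at chr7:142654968-142654989.
mmu-miR-483-3p: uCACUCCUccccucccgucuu
mmu-miR-483-5p: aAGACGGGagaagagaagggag
None of the 8 members held a match to all 7 seed bases of either microRNA in the 3′ UTR of its longest annotated coding transcript. Among 13898 tested coding genes with a 3′ UTR, 13.0% held such a match for miR-483-3p (AGGAGTG) and 3.61% for miR-483-5p (CCCGTCT), but the members' UTRs were shorter, with a median of 729 bases against 1268. A shorter match to bases 2 to 7 of miR-483-5p was present once among the members, in *Myog*, at position 565 of its 753-base 3′ UTR. The share of all genes with such a shorter match was not computed, so it is a description only. The site is shown here with the match in capitals.
Myog 3′ UTR match: tgtaaagctgCCGTCTgaccaaggtc

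The second set of sequences is the 250 bases before the RefSeq start of *Myog* and *Myh3*, a pair whose courses over the libraries were close, with each E-box in capitals. The *Myog* window is on the plus strand at chr1:134289754-134290003 and the *Myh3* window on the plus strand at chr11:67078050-67078299, both in GRCm38.p6.
Myog promoter: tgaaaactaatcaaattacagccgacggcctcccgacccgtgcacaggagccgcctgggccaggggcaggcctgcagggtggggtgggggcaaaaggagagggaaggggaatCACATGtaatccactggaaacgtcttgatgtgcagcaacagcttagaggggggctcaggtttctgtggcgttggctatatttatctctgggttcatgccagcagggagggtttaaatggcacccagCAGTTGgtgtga
Myh3 promoter: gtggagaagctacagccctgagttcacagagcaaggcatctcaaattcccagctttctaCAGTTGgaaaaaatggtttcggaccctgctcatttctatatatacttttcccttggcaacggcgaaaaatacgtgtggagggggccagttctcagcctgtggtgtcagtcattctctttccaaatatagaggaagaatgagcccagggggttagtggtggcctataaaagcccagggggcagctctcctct
The *Myog* window holds 2 E-boxes, CACATG beginning 138 bases and CAGTTG beginning 12 bases before the start, and the *Myh3* window holds 1, CAGTTG beginning 191 bases before it. CANNTG reads the same on both strands, and 66.2% of 32851 promoter windows of this length hold at least 1, so these matches are a description only. The windows of *Pax7* and *Myf5* hold 0. In the gene spans given below, *Myog* and *Pax7* begin upstream of their RefSeq starts. The CAGTTG of *Myog* and the whole *Pax7* window therefore lie inside those spans. The letters CAGCTG, found in 13.0% of all windows, occur in none of these 4 windows.

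In GRCm38 *Pax3* lies on the minus strand of chromosome 1 (78101267 to 78197134), *Pax7* on the minus strand of chromosome 4 (139737062 to 139833528), *Myod1* on the plus strand of chromosome 7 (46376474 to 46379099) and *Myog* on the plus strand of chromosome 1 (134289989 to 134292548). *Mymk* lies on the minus strand of chromosome 2 (27061636 to 27072179) and *Myh3* on the plus strand of chromosome 11 (67078300 to 67102291). All 8 counts are sums over a gene's exons.

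*Pax3*, which marks dermomyotome and migrating limb progenitors, was the steadiest member. It measured 47.9, 48.1 and 49.3 CPM in WT replicates 1, 2 and 3, and 48.4, 48.2 and 51.7 CPM in 5C replicates 1, 2 and 3, on 309 to 913 counts per library. The groups overlapped and only 5C replicate 3 lay above the highest WT library. The coefficient of variation was 1.57% in WT and 3.95% in 5C, where counting error alone gives 4.10% and 3.79%. *Pax7*, its paralogue, measured 12.3, 9.62 and 8.77 CPM in WT against 11.6, 11.2 and 8.97 CPM in 5C. The highest and the lowest *Pax7* values both belonged to WT.

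*Myf5*, the first of the bHLH factors to appear in the myotome, measured 5.04, 5.32 and 7.34 CPM in WT against 4.61, 5.89 and 7.62 CPM in 5C. Here the highest and lowest libraries were both 5C, and the spread within a genotype (21.3% in WT, 25.03% in 5C) was larger than counting error (12.1% and 10.9%). *Myod1*, which acts beside *Myf5* in commitment and comes on later, rested on 30, 5 and 3 counts in WT and 14, 16 and 15 counts in 5C, or 1.57, 0.429 and 0.479 CPM against 0.848, 1.37 and 1.07 CPM. WT replicate 1 was above every other library and the other pair of WT libraries was below all of 5C, so the groups overlapped through 1 library. The exact Poisson 95% interval of WT replicate 1 (counting error only) was 1.06 to 2.25 CPM. This interval did not overlap that of WT replicate 2, 0.139 to 1.002 CPM, but did overlap that of WT replicate 3, 0.0987 to 1.40 CPM. *Myf6* (Mrf4), which lies beside *Myf5* on chromosome 10 (107492853 to 107494737, against 107482908 to 107486134 for *Myf5*, GRCm38, minus strand), measured 1.21, 0.687 and 0.798 CPM in WT against 1.15, 1.45 and 0.997 CPM in 5C, from 5 to 23 counts. The *Myf6* groups overlapped through the same library, WT replicate 1.

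*Myog*, the differentiation factor, measured 11.7, 9.27 and 11.2 CPM in WT against 8.54, 10.8 and 8.68 CPM in 5C, on 70 to 223 counts. WT replicates 1 and 3 were the highest, 5C replicates 1 and 3 the lowest, and the libraries numbered 2 crossed between the groups. *Myh3*, the contractile product, measured 47.4, 34.3 and 46.1 CPM in WT against 29.8, 40.6 and 35.4 CPM in 5C, on 289 to 904 counts. WT replicates 1 and 3 were again the highest, 5C replicate 1 was the lowest, and WT replicate 2 lay below 5C replicates 2 and 3. The spread of *Myh3* within a genotype was 17.0% in WT and 15.4% in 5C against 4.34% and 4.53% from counting, so depth did not limit it. *Mymk*, the fusion factor, had 9, 3 and 3 counts in WT and 7, 4 and 4 counts in 5C. Its levels of 0.258 to 0.479 CPM in WT against 0.285 to 0.424 CPM in 5C were close to the smallest level that 3 counts of a library allow, 0.157 to 0.472 CPM, and a difference was not detectable at this depth. Exons of none of the 8 members overlapped those of another gene. *Myh3* lies in a cluster of near-identical myosin genes, and reads shared with them may have been lost in counting.

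**Figure D1:**
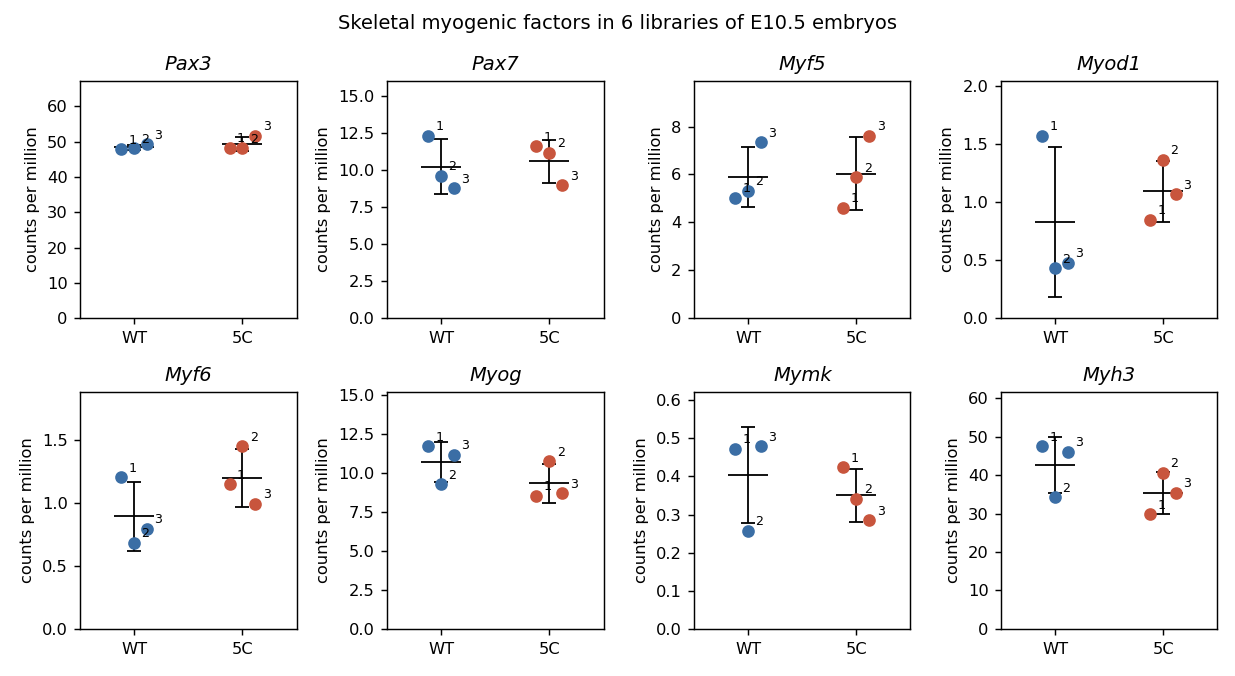
Level of each factor in CPM (vertical axis, from 0) in the 3 WT and 3 5C libraries, numbered by replicate, with the mean and SD as bars. The values of WT and 5C overlap in all 8 panels, and WT replicate 1 stands above the other WT libraries for *Myod1* at 1.57 CPM.

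Levels between genes were compared per exon length, as RPKM (CPM divided by exon length in kilobases). In WT the order was *Pax3* at 7.83 ± 0.12 RPKM, *Myog* at 7.17 ± 0.85, *Myh3* at 7.03 ± 1.197, *Myf5* at 2.83 ± 0.60, *Pax7* at 1.75 ± 0.32, *Myf6* at 0.710 ± 0.217, *Myod1* at 0.445 ± 0.348 and *Mymk* at 0.267 ± 0.083 RPKM (mean ± SD, n = 3). The order of the 8 means in 5C was the same, at 7.99 ± 0.32, 6.24 ± 0.83, 5.82 ± 0.90, 2.90 ± 0.73, 1.81 ± 0.24, 0.950 ± 0.183, 0.588 ± 0.140 and 0.232 ± 0.046 RPKM. In WT the ranges of the first 3 genes overlapped from neighbour to neighbour, as did those of *Myf6*, *Myod1* and *Mymk*, whereas *Myh3*, *Myf5*, *Pax7* and *Myf6* were separated from one another. In 5C the neighbours that overlapped were *Myog* with *Myh3*. The ratio of *Myog* to the commitment factor *Myod1*, in RPKM, was 9.25 in WT replicate 1 and 26.9 and 29.0 in WT replicates 2 and 3, where *Myod1* had 5 and 3 counts, and 9.80 to 12.5 in 5C.

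**Figure D2:**
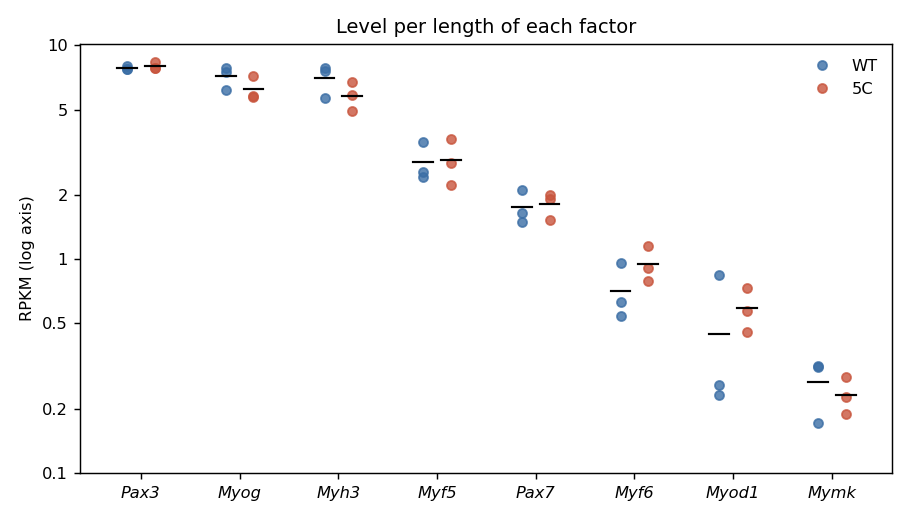
RPKM of each factor on a log axis, 3 libraries per genotype as points and their mean as a line, in the order of the WT means. *Pax3*, *Myog* and *Myh3* form the top at 5.82 to 7.99 RPKM on average, and *Mymk* is lowest at 0.232 to 0.267 RPKM.

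Among the 4 bHLH factors of the MyoD family, *Myog* held 65.0%, 65.1% and 62.9% of their summed RPKM in the WT libraries and 61.5%, 60.4% and 53.6% in 5C. *Myf5* held 20.1% to 29.7% in WT and 23.8% to 33.8% in 5C, and *Myf6* held 5.32% to 7.93% and 7.29% to 9.81%. *Myog* was the most abundant of the family in every library. Its share was lower in each 5C library than in each WT library, a description with no test. The nearest values were 62.9% in WT replicate 3, on 70 *Myog* and 46 *Myf5* counts, and 61.5% in 5C replicate 1. The level of *Myog* itself overlapped between the groups, and 11.4% of all single genes tested did not overlap. In RPKM, *Myog* over *Myf5* ran from 2.12 to 3.24 in WT and from 1.59 to 2.58 in 5C and overlapped. The ratio of *Myh3* to *Myog* was nearly constant, 0.912 to 1.02 in WT and 0.860 to 1.01 in 5C. That of *Pax3* to *Pax7* ranged from 3.68 to 5.32 in WT and from 3.94 to 5.46 in 5C. All 8 members together summed to 24.8 to 30.03 RPKM in WT and 24.3 to 28.5 RPKM in 5C.

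To ask whether added *Mir483* copies altered these factors, 5C was compared with WT in edgeR's quasi-likelihood test, with Benjamini-Hochberg adjustment over all 16784 genes tested. A gene was called at an adjusted p under 0.05 with a change over 1.5-fold. No member was called, 0 of the 7 tested, where 0% of all genes were (0 genes, with 11 called by DESeq2). *Mir483* itself was among the genes not called, although its counts did not overlap (2 to 11 in WT, 36 to 85 in 5C). The study reported differentially expressed genes in these embryos at the same thresholds. The 0 calls here therefore do not show that nothing changed. At an unadjusted p under 0.05, 0 of 7 members were lower in 5C and 0 of 7 higher, where 3.47% and 2.55% of all genes were. Groups did not overlap for 0 of the 7, against 11.4% of all genes. Fewer muscle cells and less RNA per cell cannot be told apart in whole-embryo libraries, and p-values measure the spread between these pools.

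For the progenitor genes the log2 fold change of 5C against WT was 0.03 (SE 0.07) for *Pax3* and 0.03 (SE 0.17) for *Pax7*, with adjusted p of 0.940 and 0.987 in edgeR's quasi-likelihood test. The 95% interval was 0.914-fold to 1.14-fold for *Pax3* and 0.787-fold to 1.32-fold for *Pax7*. Both intervals lie inside a 1.5-fold change in either direction. For the commitment factors it was 0.06 (SE 0.23) for *Myf5*, 0.16 (SE 0.47) for *Myod1* and 0.33 (SE 0.32) for *Myf6*, with adjusted p of 0.970, 0.957 and 0.854 in the same test. The interval was 0.732-fold to 1.49-fold for *Myf5*, but 0.539-fold to 2.32-fold for *Myod1* and 0.764-fold to 2.05-fold for *Myf6*, so for the 2 scarcest tested factors even a doubling in 5C lies within the interval.

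The differentiation genes had the only negative estimates. *Myog* gave -0.20 (SE 0.15, unadjusted p = 0.212, edgeR adjusted p = 0.798), with an interval of 0.684-fold to 1.10-fold. *Myh3* gave -0.28 (SE 0.15, unadjusted p = 0.0913, edgeR adjusted p = 0.781), with an interval of 0.658-fold to 1.04-fold. Neither passed the test. The median over the 7 tested members was 0.03, beside -0.002 over all genes tested.

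**Figure D3:**
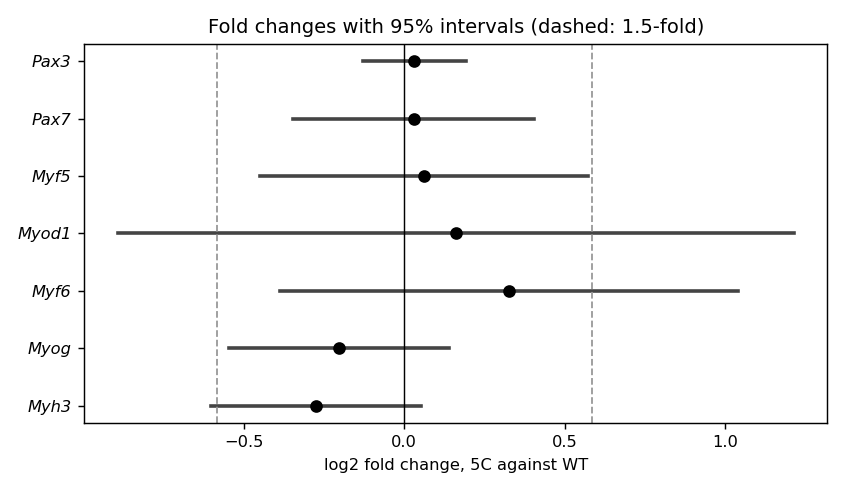
Log2 fold change of 5C against WT for the 7 tested factors (points) with 95% intervals (lines) from edgeR's quasi-likelihood fit, dashed lines marking a 1.5-fold change. Every interval includes 0, and that of *Pax3* is the narrowest, at 0.914-fold to 1.14-fold.

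Several estimates rested on single libraries. Without WT replicate 1, the library rich in extraembryonic markers, *Myod1* gave 1.247 (unadjusted p = 0.0261, edgeR adjusted p = 0.947), and over all alternatives its value ran from -0.33 to 1.247. *Myf6* gave 0.70 without WT replicate 1 and 0.0072 without both libraries numbered 2. *Pax7* gave 0.20 and *Myf5* -0.04 without WT replicate 1, and without 5C replicate 3 *Myf5* gave -0.15. Without the pair of libraries with almost no Y-linked RNA, WT replicate 2 and 5C replicate 2, *Myh3* gave -0.52 (unadjusted p = 0.00404) and *Myog* -0.41 (unadjusted p = 0.0460), with an edgeR adjusted p of 0.837 for both. Without WT replicate 2 alone *Myh3* gave -0.41 (unadjusted p = 0.0115, edgeR adjusted p = 0.431), and without 5C replicate 2 alone -0.39 (unadjusted p = 0.0396, edgeR adjusted p = 0.992). The part of these libraries' composition in the members' values was not tested. *Pax3* stayed between -0.002 and 0.05 with any one library left out.

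**Figure D4:**
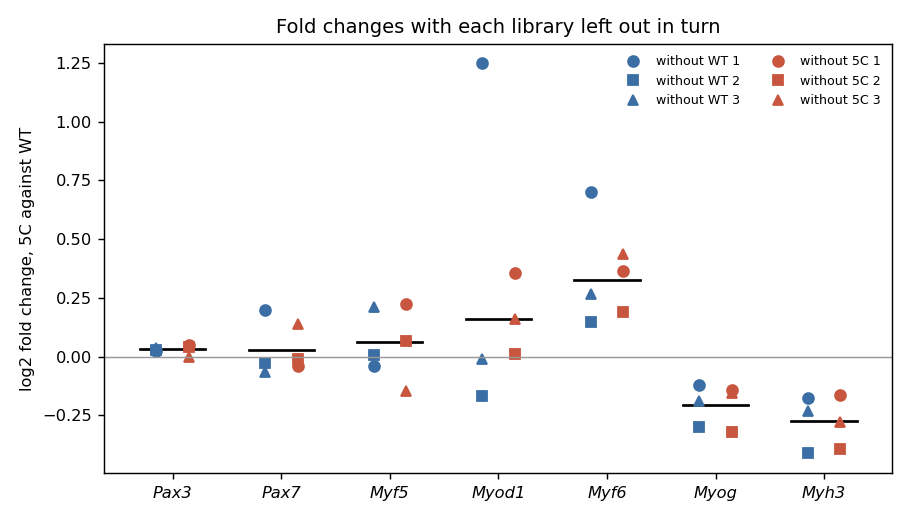
Log2 fold change of 5C against WT with all 6 libraries (line) and with each library left out in turn (points, coloured by the genotype and shaped by the replicate left out). *Myod1* moves most, to 1.247 without WT replicate 1, while *Myog* and *Myh3* stay below 0 and *Myf6* above 0 in all 6 fits.

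The gene nearest to *Myog* in its course over the 6 libraries was *Neb*, which codes for nebulin, a giant thin-filament protein of skeletal muscle. *Neb* measured 17.9, 13.7 and 16.4 CPM in WT against 13.6, 15.6 and 13.2 CPM in 5C. Its root-mean-square distance in log2 CPM, after each gene's mean was subtracted, was 0.042, where the median of 15925 ranked genes was 0.227. *Plxna4*, *A730017L22Rik*, *Map3k5* and *A930033H14Rik* followed at 0.057 to 0.061. *Myh3* ranked 72nd at 0.090, whereas *Pax3* ranked 4548th, *Pax7* 7819th, *Myf5* 12781st and *Myf6* 13363rd. Around *Pax3* the nearest were *Sh3kbp1*, *Zfp106*, *Gdi2*, *Dnaja2* and *1110059E24Rik* at 0.014 to 0.019, genes as steady as *Pax3* itself, and no member was among them. *Myod1* and *Mymk*, with means under 1 CPM, were not ranked. These distances rest on 6 libraries and are a description without a test.

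Other genes tied to the lineage were read from fixed lists, and the part of other tissues in their whole-embryo levels was not tested. For these lists and those below, the shares over all genes tested were 3.47% lower and 2.55% higher at an unadjusted p under 0.05. Groups did not overlap for 11.4% of all genes tested. Of 14 dermomyotome and migrating progenitor genes, all tested, 0 were called, and at an unadjusted p under 0.05 there were 0 lower and 1 higher, and the median log2 fold change was 0.06. This gene was *Sim1*, a bHLH-PAS factor of the lateral dermomyotome, at 15.5, 14.1 and 17.5 CPM in WT against 19.3, 21.4 and 19.6 CPM in 5C, with no overlap (log2 fold change 0.36, SE 0.11, unadjusted p = 0.0106, edgeR adjusted p = 0.781). *Six4*, a homeobox factor upstream of the bHLH genes and the most abundant of the list, gave 0.03, and *Lbx1*, which marks migrating limb progenitors, gave 0.25, with edgeR adjusted p of 0.942 and 0.816. Of 6 head muscle regulators, 0 were called and *Lhx2* alone had an unadjusted p under 0.05 (0.27, unadjusted p = 0.0262, edgeR adjusted p = 0.781), the list median being 0.12. *Msc* and *Isl1* gave 0.28 and 0.14, with edgeR adjusted p of 0.790 and 0.781.

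The partners and inhibitors of the bHLH factors comprised 14 tested genes, with 0 called, 0 lower and 2 higher at an unadjusted p under 0.05, and a median of 0.06. The 2 were *Id4*, which keeps E proteins from their partners (0.27, unadjusted p = 0.0222), and *Twist1*, a mesodermal inhibitor of myogenesis (0.21, unadjusted p = 0.0300), both with an edgeR adjusted p of 0.781. The E protein *Tcf12* was the most abundant at 645 to 683 CPM in WT against 710 to 720 CPM in 5C (0.10, edgeR adjusted p = 0.781). *Hey1*, a Notch target, gave -1.15 through 1 library, at 203 CPM in WT replicate 3 and 30.1 to 41.8 CPM elsewhere, and without that library it gave 0.21.

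Downstream of the factors, 17 of 22 myocyte differentiation genes were tested, and 0 were called, with 0 lower and 0 higher at an unadjusted p under 0.05 and a median of -0.11. The smallest p-values in this list were those of *Casq1* (calsequestrin, -0.30), *Chrnb1* (an acetylcholine receptor subunit, -0.44) and *Tnnt1* (slow troponin T, 0.21), with unadjusted p of 0.158, 0.164 and 0.210 in edgeR's quasi-likelihood test and adjusted p of 0.781, 0.781 and 0.798. *Mybpc1*, a myosin-binding protein with the highest CPM of the list over all 6 libraries, measured 13.9 to 17.0 CPM in WT against 15.8 to 17.8 CPM in 5C. *Mymx*, the fusion partner of *Mymk*, had 3 to 11 counts per library in WT and 3 to 7 in 5C, as scarce as *Mymk*. Without 5C replicate 1 the list median was 0.055. The list summed to 95.5 to 111 CPM in WT against 94.8 to 112 CPM in 5C.

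Myosins of adult fibres were at the floor. *Myh1*, *Myh2* and *Myh4*, the adult fast myosins, had 0 to 5 counts per library, and 3 of 8 late fibre genes could be tested, *Actn3* (-0.35), *Atp2a1* (-0.26) and *Mb* (0.07), with edgeR adjusted p of 0.781, 0.881 and 0.995 and a median of -0.26. *Myh3* at 289 to 904 counts was thus the most counted of these myosins by far, and *Myh8*, the perinatal one, had 3 to 17 counts.

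Of the sarcomere genes that skeletal muscle shares with heart, 15 of 15 were tested. None was called (0), and the median was -0.26. At an unadjusted p under 0.05, 4 were lower and 0 higher, where 3.47% and 2.55% of all genes were. *Myh7*, the slow and cardiac myosin, measured 79.7, 88.4 and 80.4 CPM in WT against 52.3, 60.4 and 67.2 CPM in 5C, with no overlap (-0.47, SE 0.10, unadjusted p = 0.000845, edgeR adjusted p = 0.781). *Ttn* (titin) and *Actc1* (cardiac actin) gave -0.32 and -0.21 with unadjusted p of 0.00252 and 0.0303 in the same edgeR test, each with no overlap and an adjusted p of 0.781. The last was *Myom1*, an M-line protein, at -0.28 (unadjusted p = 0.0331, edgeR adjusted p = 0.781), with overlap. Heart markers are given beside them. Of 10 tested, 0 were called, 3 were lower and 0 higher at an unadjusted p under 0.05, and the median was -0.19, with *Myh6* (alpha cardiac myosin) at -0.85 (61.1 to 86.5 CPM in WT, 33.1 to 48.9 CPM in 5C), *Tbx20* at -0.27, *Ryr2* at -0.30 and *Myl7*, with the highest CPM of the list over all 6 libraries, at -0.25, with edgeR adjusted p of 0.781, 0.781, 0.781 and 0.797. Without WT replicate 2 the medians were -0.12 for the shared sarcomere genes and 0.0025 for the heart markers, and without both libraries numbered 2 they were -0.084 and 0.0080. The heart markers summed to 303 to 424 CPM in WT against 268 to 302 CPM in 5C. The part of heart tissue in the shared sarcomere genes, and in *Myh3*, was not tested.

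**Figure D5:**
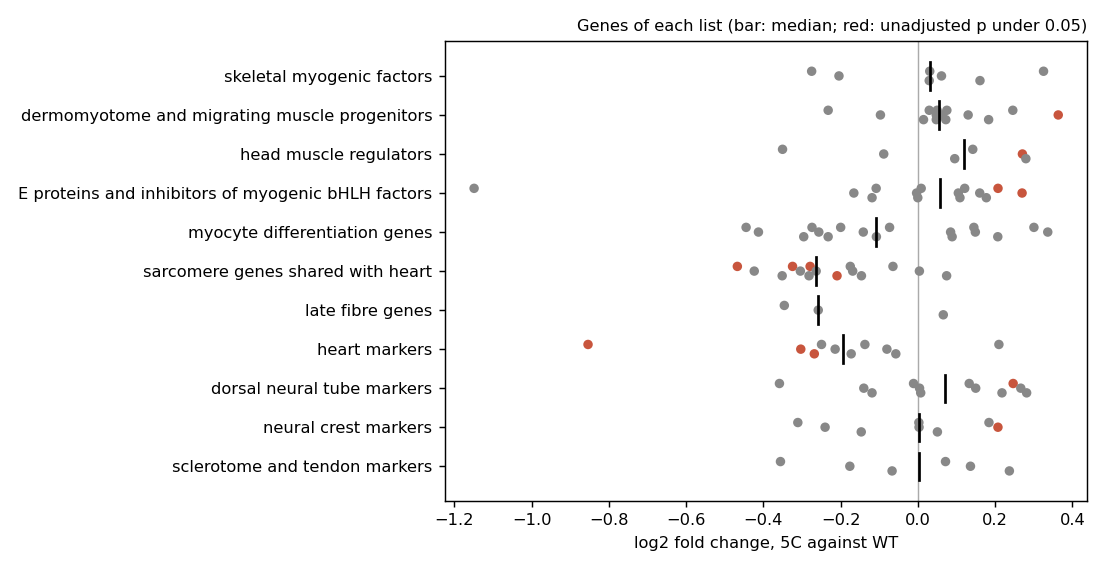
Log2 fold change of 5C against WT for each tested gene of 11 lists, with the list median as a bar and genes at an unadjusted p under 0.05 in red. The 7 tested myogenic factors lie between -0.28 and 0.33. Among the lists drawn, negative genes at an unadjusted p under 0.05 belong to the shared sarcomere genes and the heart markers. The extraembryonic endoderm markers, 2 of them lower at that threshold, are not drawn.

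The other tissues that make *Pax3* and *Pax7* were read the same way. Dorsal neural tube markers summed to 210 to 221 CPM in WT against 245 to 251 CPM in 5C without overlap, with 0 of 12 called, 0 lower and 1 higher at an unadjusted p under 0.05, and a median of 0.07. The 1 was *Zic1*, a zinc-finger factor of dorsal neural tube and somite (0.25, unadjusted p = 0.00247, edgeR adjusted p = 0.781), while *Zic2* and *Atoh1* gave 0.22 and 0.27 with edgeR adjusted p of 0.781 and 0.803. Neural crest markers summed to 215 to 221 CPM in WT against 232 to 234 CPM in 5C, with 8 of 9 tested, 0 called, 0 lower and 1 higher (*Ednrb*, the endothelin receptor of crest cells, 0.21, unadjusted p = 0.0158, edgeR adjusted p = 0.781) and a median of 0.003. *Tfap2b* and *Erbb3* gave 0.18 and -0.24, each with an edgeR adjusted p of 0.781. Single genes made up much of both sums, *Zic1* at 137 CPM in WT and 162 CPM in 5C on average and *Ednrb* at 102 and 118 CPM. The part of these tissues in the levels of *Pax3* and *Pax7* was not tested.

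Sclerotome and tendon markers, from the somite compartments that do not form muscle, summed to 42.8 to 51.2 CPM in WT against 45.6 to 47.6 CPM in 5C. Of 6 tested, 0 were called and 0 were lower or higher at an unadjusted p under 0.05, with a median of 0.002 that ran to -0.10 without WT replicate 2 and to 0.090 without WT replicate 1. *Pax1*, *Uncx*, *Scx* and *Foxc2* gave -0.36, 0.24, -0.18 and 0.07, with edgeR adjusted p of 0.781, 0.797, 0.854 and 0.921. Of the 10 extraembryonic endoderm markers, all tested, 0 were called and 2 were lower at an unadjusted p under 0.05, *Lrp2* (-0.92) and *Amn* (-2.33), with edgeR adjusted p of 0.781. *Lrp2* measured 245 CPM in WT replicate 1 and 56.1 to 94.1 CPM elsewhere and gave -0.21 without that library, and *Amn* measured 10.8 CPM in it and 0.171 to 1.99 CPM elsewhere and did not pass the count filter without it. The list median of -2.12 rested on WT replicate 1 and was 0.73 without it. *Afp*, the most abundant, gave -2.09 and *Apob* -2.59, and without that library 0.70 and 0.41.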

How the data were processed

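RNA-seq of 3 WT and 3 5C libraries was used, grouped by the sample titles. The authors made poly(A)-selected stranded libraries, mapped short single-end reads to GRCm38 by STAR against Ensembl genes, and deposited unscaled, unfiltered counts per gene. The 2 sources used here name different RNA kits. Symbols, exon lengths and 3′ UTRs came from a GENCODE annotation of GRCm38, which held 55141 of the 55401 identifiers, and promoters and microRNAs from RefSeq (GRCm38.p6; 4 of the 8 members had a promoter entry).

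Differential expression used edgeR 4.0.16 in R 4.3.3: filterByExpr, scaling by trimmed mean of M values (TMM), the legacy quasi-likelihood F-test, two-sided, with Benjamini-Hochberg adjustment over 16784 genes. The SE was the log2 fold change divided by the square root of F, and 95% intervals used its t quantile. CPM and RPKM used TMM-scaled totals, and log2 CPM a prior count of 2. Intervals and floors of 3 counts cover counting error only. Every pair of libraries differed beyond sampling noise (chi-square per gene at least 5.769). The fit was tested on simulated counts with 200 changed genes. It recovered 67.5% of 2-fold changes and 91.5% of 4-fold changes. Of its calls, 6.9% and 7.6% were false.

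The members and lists were chosen with earlier results of these data known. Besides the 8 members, the rule named from each list the 3 tested genes with the smallest unadjusted p and the most abundant tested gene, *Mir483*, sex-linked transcripts, and the 5 genes nearest to *Myog* and to *Pax3* in log2 CPM (mean of at least 1 CPM). *Mymx*, *Myom1*, *Myh8*, *Myh1*, *Myh2* and *Myh4* were added after seeing their values. One gene that the rule names is not reported here. Results were recomputed with other scalings, filters, tests (DESeq2 1.42.0, limma-voom 3.58.1, other forms of the quasi-likelihood test), the replicate number as a block, offsets for GC content, leaving out libraries, and removing mitochondrial and globin genes.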

Additional observations from a re-analysis of the deposited data

How the results depend on the processing

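No member was called under any of the alternatives run. Over all genes the count of calls, 0 as reported, was 319 without a count filter, 11 in DESeq2 and 3 with robust moderation, and 0 to 1 with a library left out (1 without 5C replicate 2 and 1 without 5C replicate 3). Genes called in the lists moved from 0 without a count filter, to 1 among the partners and inhibitors of the bHLH factors (*Hey1*), 1 among heart markers (*Myh6*) and 10 among extraembryonic markers, and to 1 among heart markers (*Myh6*) in DESeq2. *Myh6*, *Myh7*, *Ttn* and *Mir483* had an adjusted p under 0.05 in DESeq2 and without a count filter. The causes were not tested.

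Of the members, *Myf6*, *Myog* and *Myh3* kept their sign throughout, at 0.01 to 0.70, -0.41 to -0.12 and -0.52 to -0.16. *Pax7* reversed in limma-voom (-0.0062) and without the libraries numbered 2 (-0.062), *Myf5* with GC-content offsets (-0.026) and with these and the replicate block (-0.060), and *Myod1* without the libraries numbered 2 (-0.33). With each library left out in turn the range was -0.0025 to 0.047 for *Pax3*, -0.065 to 0.20 for *Pax7*, -0.15 to 0.23 for *Myf5* and -0.17 to 1.247 for *Myod1*. *Six4* reversed with GC-content offsets (-0.013), with these and the replicate block (-0.012) and without the libraries numbered 2 (-0.011), and *Myl7* in the last of these (0.10). Left-out ranges that crossed 0 were -0.014 to 0.061 for *Six4*, -1.57 to 0.21 for *Hey1*, -0.21 to 0.51 for *Mb*, -0.42 to 0.014 for *Myl7*, -0.012 to 0.24 for *Foxc2*, -5.23 to 0.41 for *Apob* and -3.73 to 0.70 for *Afp*.

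Deviations of same-numbered libraries correlated at -0.174, 0.202 and -0.166 for numbers 1, 2 and 3. The highest correlation, 0.307, was that of WT replicate 1 with 5C replicate 3. With 3 libraries per genotype these values cannot show whether the number pairs them. With the replicate block 0 of 7 members and 0 of all genes were called, and *Myh3* gave -0.28. The mean levels under the other scalings moved by less than the SD between libraries. With 3 libraries per genotype, depth limits what could be seen for *Mymk* (3 to 9 counts) and *Myf6* (5 to 23 counts). Spread between pools limits *Myh3*. Both limit *Myod1*, at 3 to 30 counts, whose coefficient of variation in WT was 78.2% against 28.1% from counting error.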
